A study of Sus scrofa with 63 samples.

Results

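PER1, DBP and NFIL3 are genes of the circadian clock and its output, and 4 probe-sets of the array carried their symbols, of 23935 probe-sets that were not controls. In genes, they were 3 of 6765 with a symbol of their own on at least 1 probe-set. They were chosen by measured values of these same arrays, because their signals had been found higher at 188 dpn than at 28 dpn, and their joint variation between animals of a stage was named in that choice. The levels of these genes at 28 dpn and 188 dpn, and the difference between these stages, are therefore given as a description without a test. The comparison from 1 dpn to 28 dpn uses the same 28 dpn arrays and is treated in the same way. DBP and NFIL3 were each read by 1 probe-set and PER1 by 2.

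The clock of the liver is a loop of transcription factors. ARNTL and its partner CLOCK activate the PER and CRY genes, whose proteins enter the nucleus and repress ARNTL and CLOCK. PER1 is thus a repressor within the loop, and it is also switched on directly by glucocorticoid hormone and by cAMP signals. DBP, a PAR bZIP factor driven by ARNTL and CLOCK, activates genes that carry a D-box, among them genes of drug and bile acid metabolism. NFIL3, also called E4BP4, represses from the same D-box and is known in rodents to peak when DBP is low. ARNTL itself is activated by ROR factors and repressed by REV-ERB factors. In livers of rodents the levels of these transcripts swing widely over the day, so a sample taken once gives a level at a single hour.

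The animals were German Landrace pigs, all born to or carried by gilts on a gestational high protein diet (HP), so every group shared this exposure and no group on another diet was used here. Liver RNA was measured on 63 arrays, with 16 fetuses at 94 dpc (days after conception), 16 piglets at 1 dpn (days after birth), 15 piglets at 28 dpn and 16 pigs at 188 dpn. Per the methods of the study, fetuses came from an experiment of their own, were delivered by Caesarean section and were killed by injection, piglets of 1 dpn were killed by injection of a sedative and ketamine, and animals of 28 dpn and 188 dpn were fasted overnight, stunned electrically and bled. The smallest and heaviest littermates were taken at 94 dpc and 1 dpn. Animals were sib pairs balanced for sex, and since the labels give neither litter nor sex, animals were treated as separate samples and p-values measure the spread between these arrays only. The hour of sampling is not given in the sources used here. Way of killing cannot be told apart from age in comparisons that include 94 dpc or 1 dpn, while animals of 28 dpn and 188 dpn shared the overnight fast and the way of killing. Hour of sampling cannot be told apart from age in any comparison.

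Signals are log2 values, and a difference of 1 is a doubling of the signal. Array medians lay between 6.43 and 7.52, and a background level was set in each array from control probe-sets without a target in pig RNA, with stage means from 5.64 to 6.10. All 9 hepatocyte markers were above background at every stage on most arrays. Arrays 6 and 13 of 94 dpc and arrays 25, 27 and 28 of 1 dpn stood apart from the rest of their stage, and results that rest on them are given with and without them. Signals of the clock genes were read from whole liver, in which fewer cells of a type and less RNA per cell cannot be told apart.

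PER1, a repressor of the loop, had similar levels at the 3 earlier stages and a higher level at 188 dpn. At 94 dpc its main probe-set ranged from 9.54 to 10.69 with a median of 10.10. At 1 dpn the range was 8.92 to 11.13 with a median of 10.13, and at 28 dpn it was 9.42 to 10.54 with a median of 10.02. These 3 groups overlapped widely, and their means of 10.11 ± 0.36 (SD, n = 16), 9.92 ± 0.62 (n = 16) and 10.11 ± 0.36 (n = 15) differed by less than 1 SD. At 188 dpn the lowest animal had 10.93, the median was 11.36 and the highest animal had 12.32. All 16 animals of 188 dpn were thus above all 15 of 28 dpn, and the mean was higher by 1.31 (SE 0.12), which is 2.47-fold on the signal scale. In the order of the stage means, 1 dpn was lowest, 94 dpc and 28 dpn were nearly equal, and only 188 dpn lay outside the range of its neighbour in that order.

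The second probe-set of PER1 gave stage means of 5.76, 5.16, 4.53 and 5.21. It was above background on 8, 8, 4 and 6 arrays in order of age and never passed the filter on level, so it was not tested and does not bear on the pattern of the main probe-set.

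DBP, the D-box activator, was low around birth and higher from 28 dpn on. At 94 dpc it ranged from 8.31 to 9.67 with a median of 8.86, and at 1 dpn from 7.94 to 9.01 with a median of 8.57. At 28 dpn the lowest, median and highest signals were 9.23, 9.82 and 10.46. Every animal of 28 dpn was above every animal of 1 dpn, and the means differed by 1.28 (SE 0.12), which is 2.43-fold. At 188 dpn the range was 9.34 to 11.11 with a median of 10.54, and 10 of 16 animals were above all animals of 28 dpn. The means of DBP in order of age were 8.85 ± 0.33, 8.52 ± 0.32, 9.81 ± 0.36 and 10.40 ± 0.48, and the last step was 0.59 (SE 0.15). In their order 1 dpn was lowest, followed by 94 dpc, 28 dpn and 188 dpn. The ranges of neighbours in this order overlapped at each step, and only the step from 94 dpc to 28 dpn, between means of 8.85 and 9.81, was wider than 2 SD of either stage.

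NFIL3, the D-box repressor, varied widely between animals at 94 dpc and 188 dpn and little at 28 dpn. At 94 dpc it ranged from 9.80 to 12.18 with a median of 10.76, and at 1 dpn from 9.79 to 11.80 with a median of 10.28. At 28 dpn all 15 piglets lay between 9.62 and 10.40 with a median of 9.99. At 188 dpn the range opened again, from 9.53 to 11.93 with a median of 10.31. The SD between animals was 0.78, 0.54, 0.24 and 0.74 in order of age, while the 4 stage means lay between 10.01 and 10.80. The SD of NFIL3 was above that of 95.2% of the probe-sets that passed the filter at 94 dpc and of 94.0% at 188 dpn, but of only 28.6% at 28 dpn. At 188 dpn 10 pigs had 10.45 or less and 6 had 10.90 or more, with no pig in between, and at 94 dpc 12 fetuses had 11.09 or less and 4 had 11.68 or more. Animals of adjacent stages overlapped throughout. The difference of the means from 1 dpn to 28 dpn was -0.39 (SE 0.15), and that from 28 dpn to 188 dpn was 0.57 (SE 0.19). At 188 dpn 7 of 16 pigs were above and 1 was below all animals of 28 dpn.

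**Figure D1:**
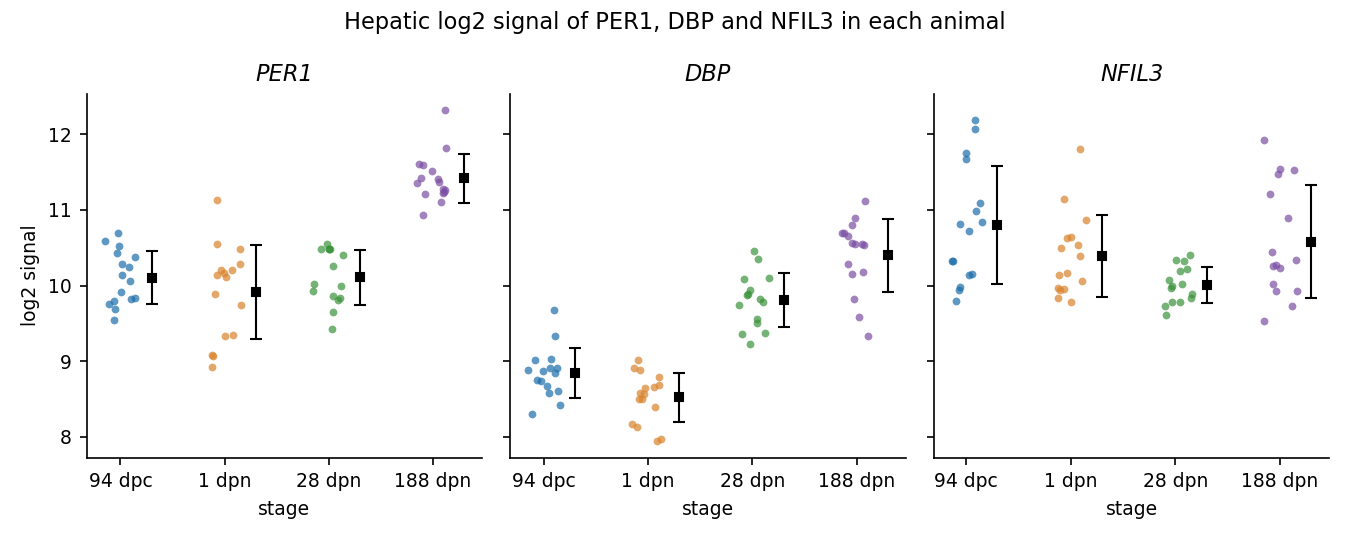
Log2 signal of PER1 (main probe-set), DBP and NFIL3 by stage. Each point is an animal (n = 16, 16, 15 and 16), with squares for means and bars for ± SD beside the points. PER1 of 188 dpn separates from 94 dpc and 28 dpn but not from 1 dpn, where array 20 (11.13) lies within its range. DBP separates between 1 dpn and 28 dpn, and NFIL3 is narrow at 28 dpn and wide at 94 dpc and 188 dpn.

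Spread between animals was less extreme in the other two genes. For PER1 the SD was above that of 57.0%, 85.6%, 61.6% and 38.5% of probe-sets in order of age, and for DBP above that of 50.2%, 28.8%, 60.8% and 74.9%. PER1 thus varied most at 1 dpn, where the lowest piglet was at 8.92 and array 20 at 11.13. DBP varied most at 188 dpn, where 3 pigs had 9.83 or less and the other 13 had 10.15 or more.

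The change around birth, from 94 dpc to 1 dpn (period I), shares no array with the difference for which the genes were chosen. Their joint variation between animals of a stage was also named in that choice, and it includes the animals of this period. The p-values of PER1, DBP and NFIL3 in period I are therefore not independent of the choice. In this period 56.9% of 12842 tested probe-sets passed the threshold of an adjusted p of 0.05 (limma, Benjamini-Hochberg over all tested probe-sets), 22.9% being higher and 34.0% lower at 1 dpn. Of the 3 genes, DBP passed and PER1 and NFIL3 did not. DBP fell by 0.33 (SE 0.12, limma adjusted p = 0.0178), with 4 of 16 piglets below all fetuses. The call of DBP was lost with quantile normalization (-0.23, adjusted p = 0.119), with each array centred on its own median over tested probe-sets (-0.22, adjusted p = 0.108) and without the 5 arrays that stood apart (-0.22, adjusted p = 0.106). PER1 differed by -0.19 (SE 0.17, limma adjusted p = 0.359) and NFIL3 by -0.40 (SE 0.23, limma adjusted p = 0.128). A fall in 1 of 3 genes is close to the share of all probe-sets that fell.

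Between 1 dpn and 28 dpn (period II) 71.7% of 13081 probe-sets passed the threshold, 28.8% being higher and 42.9% lower at 28 dpn, and in 4.95% of those tested every animal of 28 dpn was above every animal of 1 dpn, as was so for DBP. From 28 dpn to 188 dpn (period III) 34.7% of 12421 probe-sets passed, 12.3% being higher and 22.5% lower at 188 dpn, and in 0.394% of those tested every pig of 188 dpn was above every piglet of 28 dpn, as was so for PER1. Nothing is read from these counts for PER1, DBP and NFIL3, since these contrasts share arrays with the difference for which the genes were chosen. The difference of PER1 in period III was exceeded by 0.7% of the tested probe-sets, that of DBP by 4.66% and that of NFIL3 by 5.08%. The difference of DBP in period II was exceeded by 4.81%. These shares are a description only. The genes were chosen for the difference of period III, and period II uses the same 28 dpn arrays.

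Array medians fell with age, and centring each array on its own median over the tested probe-sets added 0.23 to every difference of period II and 0.10 to every difference of periods I and III. After centring, the differences of period II were 1.51 for DBP, 0.42 for PER1 and -0.16 for NFIL3. The sizes for PER1 and NFIL3 thus moved by over 1.5 times with the scaling, and their directions stayed. In period III the differences after centring were 1.41 for PER1, 0.70 for DBP and 0.67 for NFIL3.

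Of 24 other clock genes that were listed, 5 were measured: the activators ARNTL and RORA, the repressors CRY2 and BHLHE40, and CSNK1D, a kinase that acts on PER proteins. CLOCK, PER2, CRY1, the REV-ERB genes NR1D1 and NR1D2, and the DBP relatives TEF and HLF had no probe-set with their symbol in the annotation used here. ARNTL was at 9.43 ± 0.26 at 94 dpc and 8.96 ± 0.35 at 1 dpn, and at 6.76 ± 1.06 and 6.84 ± 0.83 at 28 dpn and 188 dpn. At 28 dpn and 188 dpn it was closer to background, and above it on 14 of 15 and 15 of 16 arrays. RORA was highest at 1 dpn (9.54 ± 1.01), with 7.97 ± 0.28 at 94 dpc, 7.29 ± 0.34 at 28 dpn and 7.34 ± 0.42 at 188 dpn.

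All 5 genes passed the test in period I, which is read against 56.9% of all probe-sets. RORA rose by 1.56 (SE 0.25, limma adjusted p = 2.79e-06). BHLHE40 fell by 1.28, CRY2 by 0.61, CSNK1D by 0.58 and ARNTL by 0.47, with limma adjusted p from 2.62e-05 to 0.00771. For CSNK1D the other probe-sets had 0.16 (adjusted p = 0.172) and 0.26 (adjusted p = 0.0441), so its direction is uncertain. The median change of the 5 genes was -0.58, against -0.03 over all genes.

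In period II CRY2 rose by 1.07 (SE 0.20, limma adjusted p = 1.22e-05) and CSNK1D by 0.85 (SE 0.10, 1.6e-08), while RORA fell by 2.25 (SE 0.26, 4.99e-09) and ARNTL by 2.20 (SE 0.27, 1.15e-08). BHLHE40 differed by -0.36 (adjusted p = 0.222). Their median was -0.36, against -0.01 over all genes. The other probe-sets of CSNK1D again went the other way, with -0.41 and -0.60.

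In period III none of the 5 passed by its main probe-set, where 34.7% of all probe-sets passed (limma adjusted p from 0.413 to 0.87, and 0 of 5 at an unadjusted p under 0.05). The median was 0.08 against -0.08 over all genes. Of the other probe-sets of CSNK1D, 1 had -0.37 (limma adjusted p = 0.0044). ARNTL differed by 0.08 (SE 0.32) and CRY2 by -0.17 (SE 0.15). PER1, DBP and NFIL3 were chosen for being higher in this period and the 5 other genes were not, so no contrast between them is read. Whether the changes of PER1, DBP and NFIL3 differ from those of the 5 other genes was not tested.

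**Figure D2:**
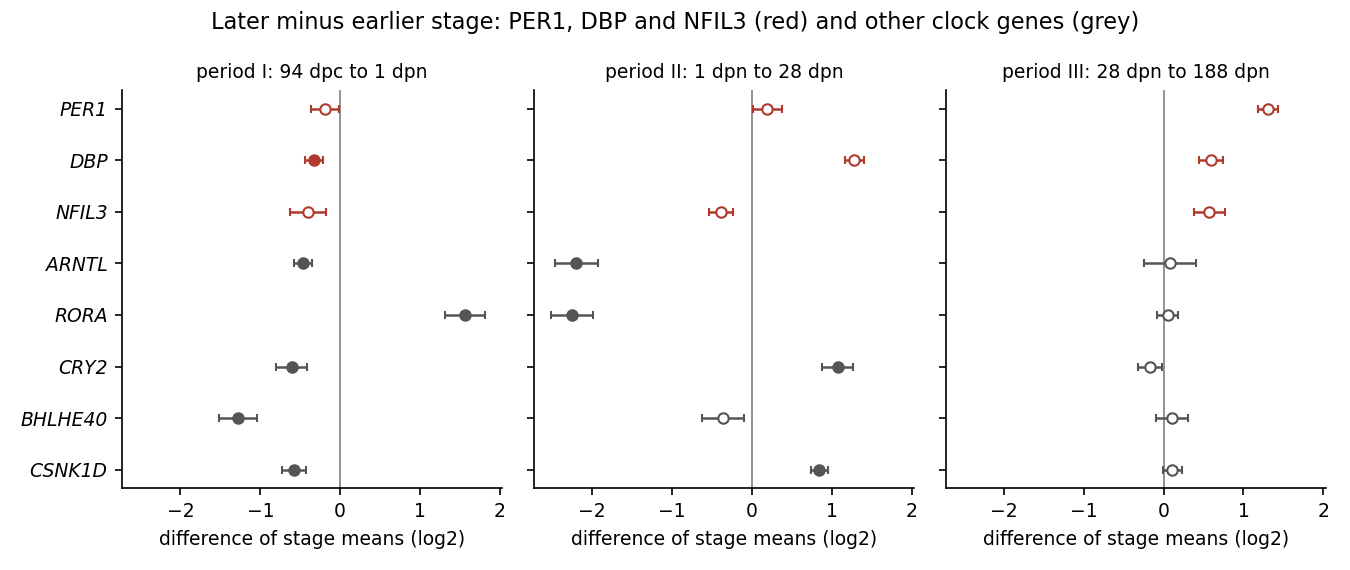
Difference between adjacent stages (later minus earlier, log2, with SE as bars) for PER1, DBP and NFIL3 (red) and 5 other clock genes (grey) in periods I, II and III. Filled points passed at an adjusted p of 0.05 and open grey points did not. The red points of periods II and III are open because they were not tested. In period III the red points lie between 0.57 and 1.31 and the grey points near 0. The red genes were chosen for being higher in period III, so no contrast with the grey genes is read there.

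Among animals of the same stage, DBP and NFIL3 ran in opposite directions. Their Pearson r was -0.362 at 94 dpc (rho -0.256, n = 16), -0.515 at 1 dpn (rho -0.424, n = 16), -0.444 at 28 dpn (rho -0.496, n = 15) and -0.665 at 188 dpn (rho -0.582, n = 16). This variation was part of how the genes were chosen, so the values carry no p. Among the probe-sets that passed the filter at 188 dpn, NFIL3 had the 49th lowest r with DBP of 11986. In order of age, 20.3%, 3.5%, 3.7% and 0.4% of probe-sets had a lower r with DBP than NFIL3 had. For the r with NFIL3, 8.5%, 9.6%, 4.2% and 1.8% were lower than that of DBP. These ranks are a description, as for the r. Single animals show the opposition. Array 59 of 188 dpn had the highest NFIL3 (11.93) and the lowest DBP (9.34) of its stage, and array 51 had the lowest NFIL3 (9.53) and the highest DBP (11.11). Array 20 of 1 dpn had the highest NFIL3 (11.80) and the lowest DBP (7.94), and array 8 of 94 dpc likewise (12.18 and 8.31). Without the 2 animals farthest from the median of DBP the r stayed below 0 at each stage but was smaller, at -0.055, -0.267, -0.317 and -0.39 in order of age, so at 94 dpc the relation rested on those animals.

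PER1 and NFIL3 had an r above 0 at 3 of the 4 stages. The r was 0.498 at 94 dpc (rho 0.471), 0.582 at 1 dpn (rho 0.429), -0.024 at 28 dpn (rho 0.036) and 0.446 at 188 dpn (rho 0.326). Without the 2 animals farthest from the median of PER1 it was 0.642, 0.545, -0.417 and 0.184. Array 20 of 1 dpn, with the highest NFIL3, also had the highest PER1 (11.13). NFIL3 also had its narrowest range at 28 dpn, and whether this bears on the r of that stage was not tested.

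PER1 and DBP showed no steady relation. The r was 0.405, -0.196, 0.333 and -0.05 in order of age, and that of 94 dpc was 0.075 without the 2 animals farthest from the median of PER1. Array 6 of 94 dpc had both the highest PER1 (10.69) and the highest DBP (9.67) of the fetuses. It is among the arrays that stood apart, with a mean over the macrophage markers of 6.83 against a stage median of 10.2. The part of these cells in the relation was not tested, and without arrays 6 and 13 the r was 0.211.

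The relation of DBP to ARNTL, its activator, was the most marked of those with the other clock genes. Over all 63 arrays, with each gene centred on its stage mean, ARNTL had the lowest r with DBP of all 13843 probe-sets that passed the filter at some stage (-0.563), and NFIL3 had the 10th lowest (-0.496). Within stages the r of DBP with ARNTL was -0.671 at 94 dpc (rho -0.647), -0.261 at 1 dpn (rho -0.376), -0.557 at 28 dpn (rho -0.807) and -0.76 at 188 dpn (rho -0.712). In a family of 60 relations (3 genes, 5 other clock genes, 4 stages), tested by permutation with 100000 resamples, two-sided, the r of 188 dpn passed (p = 0.00072, adjusted p = 0.0216) and the others had adjusted p of 0.0525 at 94 dpc, 0.539 at 1 dpn and 0.129 at 28 dpn in the same permutation test. The r of 94 dpc was -0.365 without arrays 6 and 13 (permutation, adjusted p = 0.445) and -0.425 without the 2 animals farthest from the median of DBP (permutation, adjusted p = 0.393). Array 6 had the highest DBP and the lowest ARNTL (8.74) of the fetuses. The relations with other genes were not named in the choice, but the values of PER1, DBP and NFIL3 in these animals were, so these p-values are not independent of it. By rho, 28 dpn (permutation, adjusted p = 0.0228) and 188 dpn (adjusted p = 0.0459) passed.

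NFIL3 ran with ARNTL in the same direction. The r was 0.06 at 94 dpc, 0.483 at 1 dpn, 0.598 at 28 dpn (permutation, adjusted p = 0.0633) and 0.748 at 188 dpn (permutation p = 0.00042, adjusted p = 0.0216; rho 0.759, adjusted p = 0.0228). Array 59 of 188 dpn, high in NFIL3 and low in DBP, had the highest ARNTL of its stage (8.02), and array 51, low in NFIL3 and high in DBP, had the lowest (4.76), which is below background. Without the 2 animals farthest from the median, the r at 188 dpn was 0.754 for NFIL3 and -0.653 for DBP, and the latter no longer passed (permutation, adjusted p = 0.153). Since DBP and NFIL3 ran opposite to each other, their relations with ARNTL are not separate findings. The p-values of NFIL3, like those of DBP, are not independent of the choice of the genes.

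**Figure D3:**
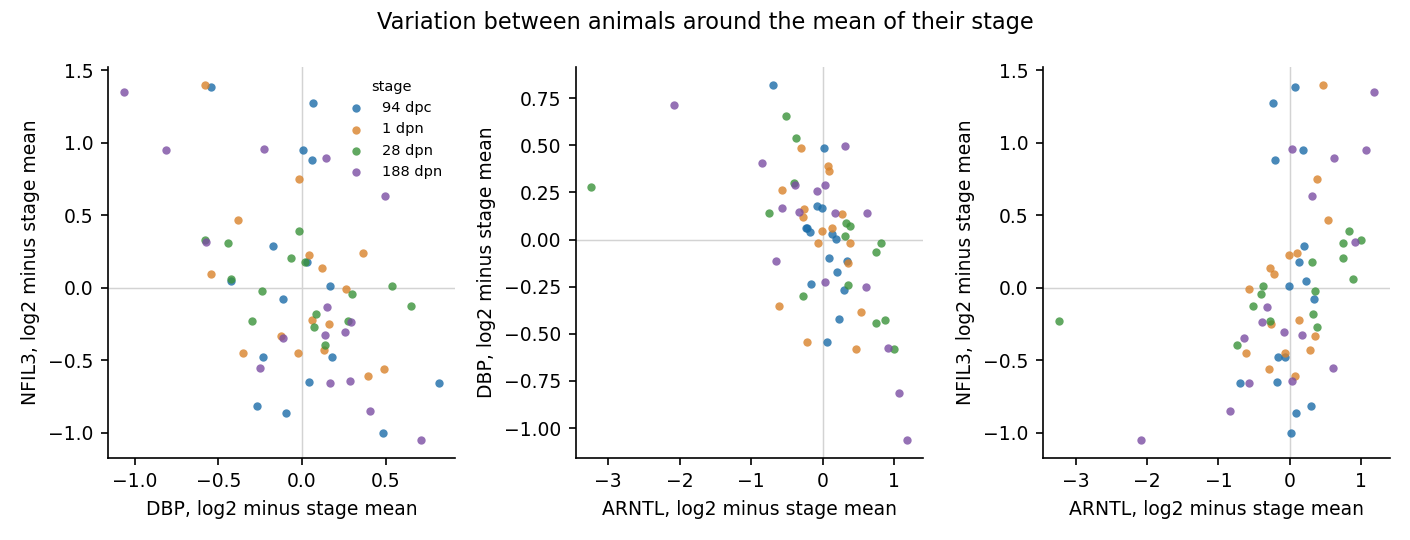
Log2 signals of DBP, NFIL3 and ARNTL in the 63 animals, each minus the mean of its stage. Points are animals coloured by stage; DBP falls as NFIL3 rises (stage-centred r of -0.496) and as ARNTL rises (-0.563), and NFIL3 rises with ARNTL, with the points of 188 dpn spread widest in DBP.

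Of the 60 relations 15 had an unadjusted permutation p under 0.05 for r and 5 passed after adjustment. All 60 use the values of PER1, DBP and NFIL3, so none is independent of the choice of these genes. Beside the pair at 188 dpn these were PER1 with RORA (r = 0.699, rho = 0.579, permutation, adjusted p = 0.0323) and NFIL3 with RORA (r = 0.717, rho = 0.615, permutation, adjusted p = 0.028), both at 1 dpn, and NFIL3 with BHLHE40 at 94 dpc (r = 0.718, rho = 0.732, permutation, adjusted p = 0.0295). The relations with RORA, an activator of ARNTL and NFIL3, were 0.523 for NFIL3 and 0.597 for PER1 without the 2 animals farthest from the median, and neither then passed (permutation, adjusted p = 0.312 and 0.182). Without arrays 25, 27 and 28 of 1 dpn the values were 0.762 and 0.682 (permutation, adjusted p = 0.0528 and 0.0813). That of NFIL3 with BHLHE40, a repressor that recognizes E-boxes, was 0.691 without arrays 6 and 13 (permutation, adjusted p = 0.0813).

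CRY2, a partner of the PER proteins, was opposite to NFIL3 at 188 dpn (r = -0.67, rho = -0.662, permutation, adjusted p = 0.0507), 94 dpc (-0.521) and 1 dpn (-0.532) but not at 28 dpn (-0.023). None of these passed. With DBP the r of CRY2 was 0.566 at 188 dpn (permutation, adjusted p = 0.12). The r of PER1 with the 5 other clock genes at 188 dpn lay between -0.307 and 0.427, and none passed.

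**Figure D4:**
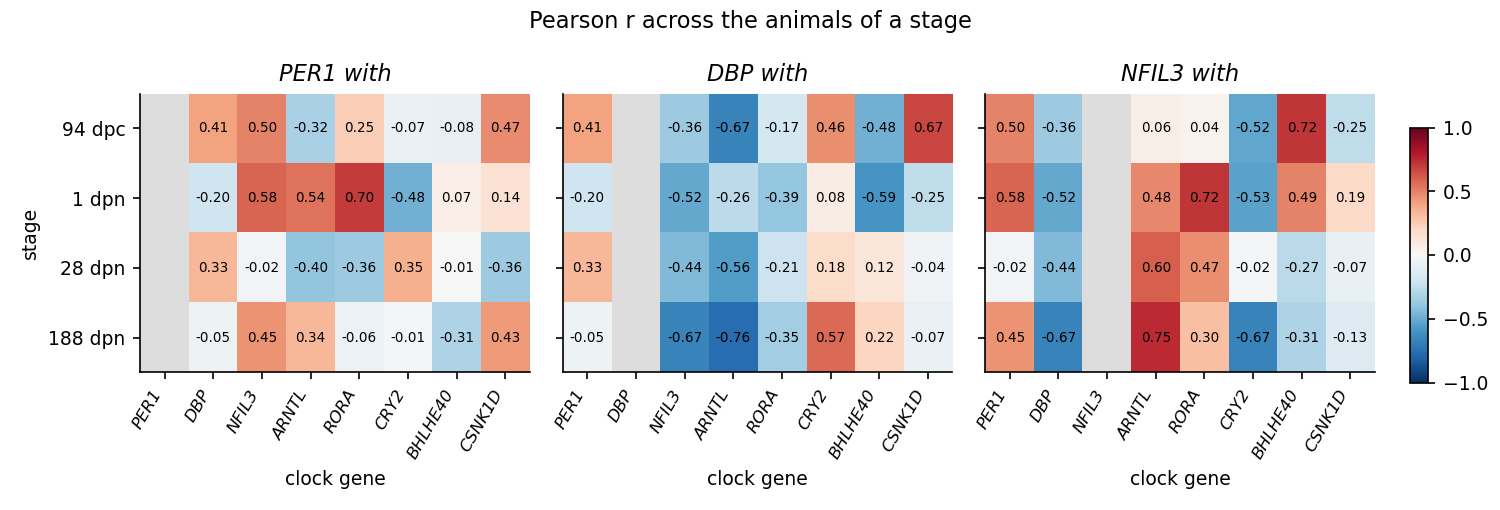
Pearson r across the animals of each stage (rows, n = 16, 16, 15 and 16) between PER1, DBP or NFIL3 (panels) and each clock gene (columns). Red is positive, blue negative and grey is the gene itself; the columns of ARNTL are blue for DBP and red for NFIL3, with -0.76 and 0.748 at 188 dpn.

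Genes most like each of the 3 were taken from the probe-sets with 1 symbol, by the r of stage-centred values over the 63 arrays. For NFIL3 they were CREM, a modulator of transcription by cAMP (0.77 and, for a second probe-set, 0.691), SGK1, a kinase induced by glucocorticoids (0.73), ETS2, a transcription factor (0.713), and ZFP36, which promotes decay of mRNAs (0.67). NFIL3 and CREM were closest at 94 dpc (r = 0.958) and 188 dpn (0.86), and not at 1 dpn (0.266) or 28 dpn (0.299). Array 8 had the highest NFIL3 and the highest CREM (14.04) of the fetuses, and array 59 the highest of both at 188 dpn (CREM 11.96). Least like NFIL3 were NEIL1, an enzyme of DNA base repair (-0.567), SLC9A3R1, a scaffold protein (-0.547), and SERINC2 (-0.547).

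For PER1 the most like were TNFAIP1 (0.58), TRAM1, which takes part in moving proteins into the endoplasmic reticulum (0.576), KLF9, a transcription factor induced by glucocorticoids (0.559), GABARAPL1 of autophagy (0.541) and ARG1, the arginase of the urea cycle (0.541). Array 20, highest in PER1 at 1 dpn, was also highest there in KLF9 (12.46), TNFAIP1 (12.33) and SGK1 (12.86). The r of PER1 with KLF9 was 0.676, 0.658, 0.119 and 0.513 in order of age. Least like PER1 were RFC5, a subunit of the clamp loader of DNA replication (-0.558), COMMD3 (-0.543) and CASP1, an inflammatory protease (-0.529).

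For DBP the most like were PCBP2, an RNA-binding protein (0.492), B3GAT3, a glucuronyltransferase (0.47), HMGN3, a nucleosome-binding protein (0.47), RUSC1 (0.465) and GSE1 (0.464). These values were lower than for NFIL3 and varied by stage, since PCBP2 had 0.842 at 94 dpc and 0.119 at 1 dpn. Beside ARNTL the least like were CD46, a regulator of complement (-0.542), and ZNF106 (-0.525). The probe-sets share arrays and scaling, and the r values are descriptions over 63 arrays.

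Of 15 listed genes known to be induced by glucocorticoids, 11 were measured, and all 11 had an r above 0 with NFIL3 (stage-centred, median 0.452, from 0.032 for HSD11B1 to 0.73 for SGK1). Over all probe-sets the median with NFIL3 was 0.023, and 54.3% were above 0. With PER1 10 of 11 were above 0 (median 0.349, against a median of -0.004 and 49.2% above 0 over all probe-sets). With DBP 0 of 11 were above 0 (median -0.241, lowest -0.425 for FKBP5, against a median of -0.017 and 46.2% above 0 over all probe-sets). Of 16 listed immediate early genes, which respond to stimuli within minutes, 10 were measured. All 10 were above 0 with NFIL3 (median 0.524), 8 with PER1 (median 0.138) and 1 with DBP (median -0.237). These are read against the same medians and shares over all probe-sets. The counts of both lists use values of PER1, DBP and NFIL3 that were named in the choice. Since DBP and NFIL3 ran opposite to each other, their counts are not separate findings. CREM was not on these lists, and SGK1, KLF9 and ZFP36 were.

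Between stages the lists moved less evenly. In period III, 6 of 11 glucocorticoid-induced genes rose and 0 fell, where 12.3% and 22.5% of all probe-sets did (also 0 fell at an unadjusted p under 0.05; median 0.49, against -0.08 over all genes). Among them TAT, an enzyme of tyrosine breakdown, rose by 0.99 and MT1A, a metallothionein, by 0.85. In period I 4 rose and 6 fell (median -0.63), against 22.9% and 34.0% of all probe-sets, with HSD11B1, which makes active glucocorticoid in liver, at 2.05, FKBP5 at 1.73 and IGFBP1 at -1.71. A second probe-set of TAT, which counted among those that fell, rose by 0.73 in this period. In period II 4 rose and 3 fell (median -0.01), against 28.8% and 42.9%. Read against the same shares, immediate early genes counted 0 up and 5 down of 10 in period I (0 and 6 at an unadjusted p under 0.05), with EGR1 at -1.93 and MYC at -1.77. The other probe-sets of EGR1 had -0.42 and -0.39 and did not pass (limma adjusted p = 0.357 and 0.41). They counted 5 up and 1 down of 9 in period II, with EGR1 at 1.33 by its main probe-set but -0.89 by another (limma adjusted p = 0.0252), and 3 up and 1 down of 9 in period III, with BTG2 at 0.79 and FOS at 0.74. The medians of the immediate early genes were -0.69, 0.50 and 0.28 in order of the periods. These calls are from the same limma fits, at an adjusted p of 0.05.

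Cell type markers moved with age too. The mean over 5 measured markers of red cell precursors ranged from 10.5 to 12.0 at 94 dpc and from 6.96 to 9.10 at the other stages. That of 9 macrophage markers had a median of 10.2, 10.5, 11.8 and 10.7 in order of age. In period III 9 of 9 macrophage markers fell, against 22.5% of all probe-sets. That of 9 T and NK cell markers had a median of 5.78, 5.22, 7.25 and 6.91, with 7 of 9, among them CD3E, at background at 1 dpn and PRF1 at background at each stage. Hepatocyte markers had medians from 15.0 to 15.4. The part of these cells in the levels of PER1, DBP and NFIL3 was not tested.

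Labelling differed between stages as well. The 3′ minus 5′ difference of RNAs added before labelling was 0.227 to 0.456 at 94 dpc and 0.995 to 1.25 at 1 dpn, without overlap, so labelling and age cannot be told apart in period I. With this difference as a covariate DBP had -0.49 in period I (limma adjusted p = 0.93). Over animals of a stage, the r of this difference with PER1 was 0.565 at 188 dpn and between -0.104 and 0.329 at the other stages. With DBP it lay between -0.198 and 0.285 and with NFIL3 between -0.007 and 0.265. With the covariate the differences of period III were 1.36 for PER1, 0.58 for DBP and 0.65 for NFIL3.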

How the data were processed

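Total RNA from 63 livers was labelled and hybridised individually to Affymetrix porcine arrays. The table deposited by the authors holds log2 signals for 24123 probe-sets. The submitters' processing notes name GCOS 1.1.1, and the values behave as MAS5 type signals, each array having a trimmed mean near 500. The methods of the study describe GCRMA normalization, and sex and mother as effects in a mixed model, neither of which was used here. Precision is limited by the number of arrays and, for dim probe-sets, by background.

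Groups came from the stage in the labels. After removal of 188 controls, gene symbols were assigned by the annotation of the platform: 10069 probe-sets had 1 symbol, 198 several and 13668 none. A gene was read by the probe-set with the highest mean. Tests between 2 adjacent stages used limma 3.58.1 in R 4.3.3 (lmFit, eBayes, two-sided) without covariates. They covered probe-sets whose signal exceeded the 50th percentile of the array in 50% or more of the animals of either stage, with calls at a Benjamini-Hochberg adjusted p under 0.05. Background was the 95th percentile of 23 control probe-sets per array. Correlations were run within a stage with Python 3.11.15 and scipy 1.17.1, with permutation tests of 100000 resamples. Named genes were all probe-sets of PER1, DBP and NFIL3, the measured clock genes, the 5 probe-sets most and 3 least like each gene, and up to 4 called genes with the largest change per list and period. Alternatives were other filters, quantile normalization, centring, all arrays in 1 fit, an intensity trend, the labelling covariate, the mean of a gene's probe-sets, and fits without the 5 arrays that stood apart. For the correlations this last alternative was chosen after seeing the data. The genes and the lists were chosen with earlier results of these data known. The scripts were tested on simulated data. No sequences are shown, since the reference tables used here hold none for these probe-sets.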

Additional observations from a re-analysis of the deposited data

How the results depend on the processing

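DBP in period I had the direction of the fit without covariates under all 7 alternatives that could be fitted, but missed the threshold with quantile normalization (-0.23), centring (-0.22), the labelling covariate (-0.49) and without the arrays that stood apart (-0.22). With a filter at the 75th percentile DBP was not tested in this period. PER1 and NFIL3 missed the threshold in period I under each of their 8 alternatives. With the labelling covariate, which does not overlap between 94 dpc and 1 dpn, 0 genes were called in period I in the clock, clock-controlled, glucocorticoid-induced, immediate early and fasting lists (1, 2, 1, 0 and 2 at an unadjusted p under 0.05). Clock-controlled genes called in period II were 3 with the filter at the 75th percentile, which tests fewer genes, and immediate early genes called in period III were 2 with all 63 arrays in 1 fit, for which the cause was not tested. The other 123 of 130 list counts stayed within 1.5 times. Of the 5 relations with other clock genes, 2 passed without the 2 animals farthest from the median. These were NFIL3 with ARNTL at 188 dpn and with BHLHE40 at 94 dpc. The arrays that stood apart were all of 94 dpc or 1 dpn, so leaving them out did not retest the relations at 188 dpn. Without them NFIL3 with RORA, PER1 with RORA and NFIL3 with BHLHE40 did not pass (permutation, adjusted p = 0.0528, 0.0813 and 0.0813). Given the labelling difference and the array median, the partial r was 0.635 for NFIL3 with BHLHE40 and 0.656 for PER1 with RORA, and neither passed. The r of NFIL3 with ARNTL at 94 dpc turned from 0.06 to -0.25 without arrays 6 and 13. The r of DBP with ARNTL at 94 dpc passed with quantile normalization (-0.699), centring (-0.723) and as a partial r (-0.803), but was -0.365 without arrays 6 and 13 and -0.425 without the 2 farthest animals, and then did not pass. No paired analysis was possible because each animal was sampled at 1 stage only and the labels do not give the litter of the sib pairs. Values near background have low precision, as for the second probe-set of PER1 and for the animals lowest in ARNTL at 28 dpn and 188 dpn.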

Other observations

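Of 18 listed genes that the clock is known to drive in liver, 12 were on the array, and some rose and some fell in each period. In period III 3 of 10 tested rose and 1 fell, against 12.3% and 22.5% of all probe-sets (median 0.18 against -0.08 over all genes): LPIN1, a phosphatase of lipid synthesis, with 3.20 (SE 0.23, limma adjusted p = 4.18e-12), NAMPT, the enzyme of NAD salvage, with 0.93 and USP2 with 0.59. INSIG2, a brake on sterol synthesis, fell by 1.02. In period II USP2 rose by 2.26 and CYP7A1, the rate-limiting enzyme of bile acid synthesis, by 2.10, while PPARA fell by 2.21, CDKN1A by 0.71 and NAMPT by 0.51, so that 2 of 11 rose and 3 fell, against 28.8% and 42.9% of all probe-sets. At 1 dpn only 7 of 16 arrays had CYP7A1 above background and 12 of 16 USP2, and for PPARA it was 5 of 15 at 28 dpn and 2 of 16 at 94 dpc, so the sizes of their differences are uncertain. In period I 4 of 9 rose, against 22.9% of all probe-sets, with PPARA at 2.29, ALAS1, the first enzyme of heme synthesis, at 2.25, INSIG2 at 1.67 and POR at 1.24, and 3 fell, against 34.0%, with KLF10 at -1.38, LPIN1 at -1.37 and WEE1 at -1.06. ALAS1 did not pass in period II by its main probe-set (0.364, limma adjusted p = 0.151). Its other probe-sets then had -1.884 and -1.935 (limma adjusted p = 7.01e-07 and 2.43e-07). For LPIN1 the main probe-set had -0.137 in period II (limma adjusted p = 0.45) and the other had 0.417 (limma adjusted p = 0.00752). Stage-centred r with these genes had medians of 0.154 for PER1, 0.022 for DBP and 0.145 for NFIL3 over 11 genes, against -0.004, -0.017 and 0.023 over all probe-sets.

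Of 13 listed genes of fasting and feeding, 7 were on the array. In period III 4 of 6 tested rose, against 12.3% of all probe-sets, with ANGPTL4 at 1.37, PDK4 at 1.30, FASN at 1.07 and PCK1 at 0.53. CPT1A, which carries fatty acids into mitochondria for oxidation, fell by 0.80 (limma adjusted p = 0.00923), as 1 of 6 against 22.5% of all probe-sets. ANGPTL4 and PDK4 are known to rise on fasting and FASN, the fatty acid synthase, on feeding. In period II PCK1, CPT1A and ANGPTL4 rose by 0.83, 0.67 and 0.55 (3 of 6, against 28.8% of all probe-sets). PPARGC1A fell by 1.70 in this period (1 of 6, against 42.9%). In period I 4 rose and 2 fell of 7, against 22.9% and 34.0% of all probe-sets. ANGPTL4 then had 4.92 by its main probe-set and 2.88 by another. The main probe-set was above background on 4 of 16 fetal arrays, so the size is uncertain, and in period II the other probe-set had -0.41 (limma adjusted p = 0.08). PCK1, the rate-limiting enzyme of gluconeogenesis, had a stage-centred r of 0.594 with NFIL3 and 0.401 with PER1, the highest of this list for both.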
